A study of Mus musculus with 17 samples.

Results

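The cytosolic ribosomal protein genes encode the proteins of the large and the small subunit of the ribosome that works in the cytoplasm. They were taken by symbol from expression tables of mouse primordial germ cells. The symbols were Rpl or Rps with a number and at most an added a, x or y, together with Rplp0, Rplp1, Rplp2 and Rpsa, and without pseudogene symbols and the Rps6k kinases. There were 75 such genes among 23361 entries at E11.5 (E, embryonic day), 45 of the large and 30 of the small subunit, and 76 among 23361 at E13.5, 46 large and 30 small. Rpl34 made the difference, because the E11.5 table lists it only jointly with its pseudogene Rpl34-ps1. At both days all of these genes passed the filter on low values, which asked for an FPKM of 1 or more in 2 E11.5 or 3 E13.5 libraries. FPKM counts the sequenced fragments of a gene per kilobase of its transcript, relative to the size of the library.

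A ribosome holds 1 copy of nearly every ribosomal protein, so cells make these proteins in matched amounts, and the mRNAs are among the most abundant of a dividing cell. Many of these mRNAs begin with a C followed by a run of pyrimidines (C or T in the gene), the terminal oligopyrimidine motif through which mTOR signalling and the protein LARP1 set their translation. A few of the proteins have roles outside the ribosome: Rpl5 and Rpl11, bound to the small ribosomal RNA of the large subunit, block MDM2 and thereby raise p53 when ribosome assembly is disturbed. Primordial germ cells are the embryonic precursors of eggs and sperm, and they are about to enter meiosis in the ovary and mitotic arrest in the testis at E13.5.

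RNA of purified primordial germ cells had been sequenced in 17 libraries after removal of ribosomal RNA, with ionizing radiation as the treatment. The E11.5 groups, of unstated sex, were irradiated (IR, n = 2) and non-irradiated (noIR, n = 3), and the E13.5 groups, each n = 3, were irradiated females (FIR), non-irradiated females (FC) and a pair of male sets with the codes MIR and MC. Labels of the males contradict each other: by the pattern of the female codes MIR would be irradiated, but its titles and condition entries say non-irradiated and those of MC say irradiated, so differences between the male sets are written MIR minus MC, with no treatment named. The cell type entry of FIR replicate 1 reads E11.5, against its title and source. The labels give no radiation dose, time after irradiation, mouse strain or genotype and leave it unsaid whether the replicates of a group are separate embryos or cultures. The p-values therefore reflect the spread among these libraries alone, and that spread may be technical.

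All 12 germ cell markers on the list, such as Dazl, Ddx4 and Pou5f1, were above 0 in every library. Their summed level was 3249 to 3396 FPKM in FC and 1618 to 2466 in FIR, and 4001 to 4337 in MC and 1383 to 2605 in MIR. Supporting cell markers (12 genes of Sertoli and pregranulosa cells) summed to 8.46 to 9.33 FPKM in FC, 173 to 429 in FIR, 26.6 to 45.9 in MC and 404 to 1307 in MIR. At E11.5 they summed to 17.5 and 9.51 FPKM in IR and 9.25, 5.18 and 4.03 in noIR, so both IR libraries lay above all noIR libraries, by a narrow gap. Amh alone ran from 0.0323 to 8.18 FPKM in IR and from 0 to 0.201 in noIR. Of 5 supporting cell markers tested at E11.5 none was called (0.0177% of all genes were). Among the 12 supporting cell markers the Sertoli signal Dhh was listed at 0 in all 3 FC libraries. The 8 macrophage markers summed to 11 to 14.3 FPKM in FC, 41.7 to 71.7 in FIR, 4.12 to 5.78 in MC and 10.1 to 28.6 in MIR. The 12 Leydig and mesenchyme markers summed to 36.4 to 50.5 FPKM in FIR, above all FC libraries (mean 11.3, SD 2.04, n = 3), and to 6.08 to 14.4 in MC and 37.4 to 65.2 in MIR. Of 11 tested 6 rose in FIR against FC (21.8% of all genes did) and 9 in MIR against MC (28.7% of all genes). The endothelial sum went the other way, at 108 to 118 FPKM in FC, 60 to 77.1 in FIR, 81.4 to 87.5 in MC and 35 to 72 in MIR. Most of it was Pecam1, at 107 to 116 FPKM in FC, 54.9 to 70.8 in FIR, 79.1 to 85.2 in MC and 28.9 to 59.9 in MIR. The sum therefore follows Pecam1 and is not read as a change in endothelial cells. Of 3 endothelial markers tested, Pecam1 was called lower and Tek higher in both FIR against FC and MIR against MC. Erythroid markers summed to 29 to 44.6 FPKM in FC and 1.59 to 10.2 in FIR, while MC and MIR overlapped. Of 8 textbook p53 targets, 7 rose in FIR against FC (21.8% of all genes did) and 8 in MIR against MC (28.7% of all genes). In bulk RNA of this kind, fewer cells of a type and less RNA per cell cannot be told apart. The tables give no read totals, and depth was not estimated here.

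Promoter sequences were searched for a pyrimidine run near the transcription start. Entries were found for 56 of the 76 genes, each reaching from 250 bases before the transcription start to 50 after it. The sets below were chosen because the results turn on them, and each line gives 20 bases before the start and 30 from it, 5′ to 3′ on the gene's strand, from RefSeq on GRCm38.p6. Capitals mark the longest run of a C followed by at least 7 pyrimidines within these 50 bases. The first set is the genes with an entry among the 8 with the largest called falls in MIR against MC, Rplp2 (chr7:141447631-141447680, plus strand), Rpl18 (chr7:45718051-45718100, plus strand), Rpl13 (chr8:123102330-123102379, plus strand), Rps2 (chr17:24720043-24720092, plus strand), Rpsa (chr9:120127746-120127795, plus strand).
Rplp2: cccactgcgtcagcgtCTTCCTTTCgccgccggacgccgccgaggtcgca
Rpl18: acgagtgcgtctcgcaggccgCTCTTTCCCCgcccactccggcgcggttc
Rpl13: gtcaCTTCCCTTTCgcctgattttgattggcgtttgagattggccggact
Rps2: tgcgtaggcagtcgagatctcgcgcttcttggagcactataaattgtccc
Rpsa: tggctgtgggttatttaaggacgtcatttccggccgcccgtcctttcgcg
The 4 genes of the X chromosome, whose levels separated females from males, follow: Rps4x (chrX:102189362-102189411, minus strand), Rpl39 (chrX:37085193-37085242, minus strand), Rpl36a (chrX:134585634-134585683, plus strand), Rpl10 (chrX:74270796-74270845, plus strand).
Rps4x: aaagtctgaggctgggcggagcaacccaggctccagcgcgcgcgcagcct
Rpl39: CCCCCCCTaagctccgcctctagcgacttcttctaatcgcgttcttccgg
Rpl36a: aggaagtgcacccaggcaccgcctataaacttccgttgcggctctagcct
Rpl10: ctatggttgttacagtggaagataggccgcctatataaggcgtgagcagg
The last pair did not fall in MIR: Rpl31 (chr1:39367831-39367880, plus strand) and Rps19 (chr7:24884572-24884621, plus strand).
Rpl31: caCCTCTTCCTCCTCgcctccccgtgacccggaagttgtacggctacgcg
Rps19: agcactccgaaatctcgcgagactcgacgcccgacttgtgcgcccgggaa

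A C followed by at least 7 pyrimidines lay within these 50 bases in 28 of the 56 ribosomal protein promoters (50%) and in 3990 of 27025 promoters of all genes (14.8%). The window reaches both sides of the start, so a run in it need not begin the mRNA. In the printed genes the run of Rplp2 begins 4 bases before the annotated start and that of Rpl18 at base 2. The runs of Rpl13, Rpl31 and Rpl39 begin 16, 18 and 20 bases before the start and end before it. Rps2, Rpsa, Rps19, Rps4x, Rpl36a and Rpl10 have no such run in the window. The motif TTCCGG, the core recognised by ETS factors, was present on either strand of the 300 bases in 50% of the ribosomal protein promoters and 15.2% of all. CACGTG, the E-box bound by MYC, was present in 8.93% and 7.24%, TATAAA in 8.93% and 14.2%, and CCAAT in 32.1% and 37.9%. The run was set beside the values in MIR. Among genes with the pyrimidine run 20 of 28 were called lower than in MC (median log2 difference -0.40), and among those without it 17 of 28 (median -0.34), where 31% of all genes were called lower (median -0.04). A match of letters is a description of the sequence and not a tested site.

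Together the ribosomal protein genes held a large share of each library's expression. At E11.5 they made up 31.1 and 32.4% of the summed FPKM in IR and 32.4 to 34.2% in noIR. At E13.5 their share was 25.1, 25.8 and 25.2% in FC and 25.6, 27.5 and 28% in FIR. In the male sets it was 25.3, 22.9 and 25.1% in MC and 20.4, 23.6 and 21.8% in MIR. FIR replicates 2 and 3 lay above all FC libraries and FIR replicate 1 among them, and MIR lay below MC in replicates 1 and 3 while MIR replicate 2 (23.6%) overlapped MC replicate 2. The tables of the days were normalised separately, so the lower share at E13.5 is set side by side with E11.5 and was not tested.

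**Figure D1:**
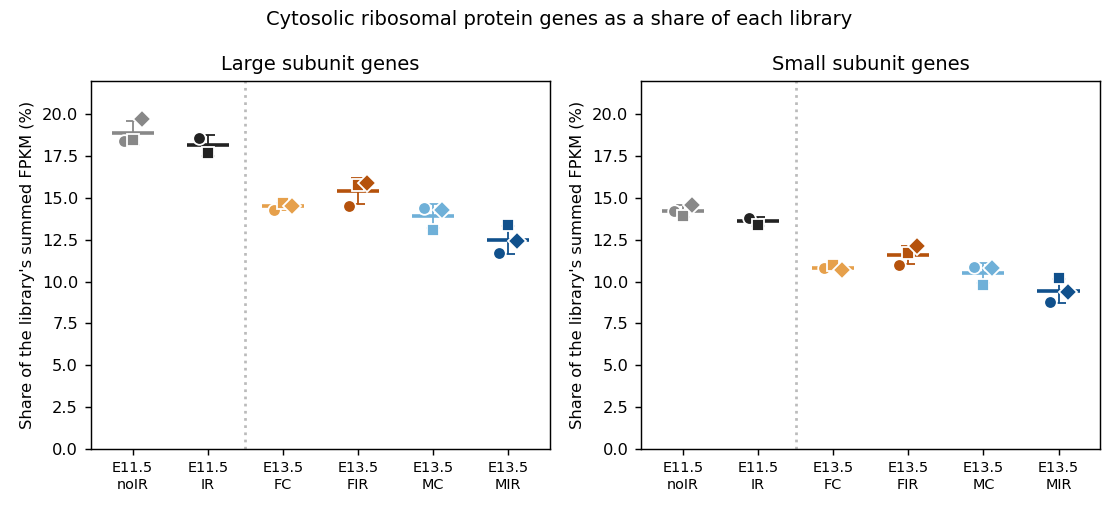
Share of each library's summed FPKM (y axis, %) held by large subunit genes (left) and small subunit genes (right) in each group (x axis). Circles, squares and diamonds are replicates 1, 2 and 3, bars are group means and whiskers SD; the dotted line separates tables that were normalised separately. Both subunits moved together, and the lowest E13.5 shares are those of MIR replicates 1 and 3.

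Within a library the members differed by more than 10-fold in FPKM, a unit that is per length and so allows genes to be compared. Over the 71 genes without a sequence-sharing entry, described next, the group means at E11.5 IR ran from 427 FPKM for Rpl22 to 9286 for Rplp1, with a median of 2982. At E13.5 the medians of the group means were 2018 FPKM in FC, 2036 in FIR, 2112 in MC and 1531 in MIR. The most abundant at E11.5, over all 5 libraries, were Rplp1, Rpl41, Rps28, Rpl23a and Rps12, and those at E13.5, over 12 libraries, included Rpl39, Rpl23a, Rplp1 and Rps4x. Rplp1 and Rpl23a stood among the first 5 at both days. Rpl22, whose product also binds RNA outside the ribosome and represses its paralogue Rpl22l1, was the lowest unshared gene in all 6 groups. Its values were 312.9, 316.3 and 322.7 FPKM in FC and 247.9, 300.8 and 276.4 in MIR, while Rpl22l1 was listed at 774.3, 883.7 and 920.0 in FC and 702.3, 727.4 and 724.7 in MIR. Rpl22l1 was thus above Rpl22 in each of these libraries.

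For 5 genes the tables held a second entry that shared much of the sequence or, for Rps27, was tied to the gene by a joint listing. By shared words of 31 bases, Rpl26 shared 69.8% of its transcript with the predicted gene Gm15772, Rpl30 53.1% with Gm12191, Rpl34 44.1% with Rpl34-ps1 and Rps15a 40.8% with Rps15a-ps6. Rps27 was listed jointly with Gm9846 at E11.5 and was paired with it for that reason. No share of words was obtained for that pair. These predicted entries were named after their values were seen. At E13.5 the ribosomal protein entry held 0.152% of the summed level for Rps27, 0.711% for Rpl26, 1.30% for Rpl30, 57.8% for Rps15a and 60.5% for Rpl34. Rpl34 was listed at 1591 and 1844 FPKM in FIR replicates 1 and 2 but at 120.4 in replicate 3, where Rpl34-ps1 stood at 3250. The sum of both ran only from 2655 to 3371 FPKM in FIR and from 2994 to 3180 in FC. Differences of these 5 genes taken alone are therefore uncertain, and the sums are given beside them.

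At E11.5 no ribosomal protein gene passed the test between IR and noIR. None of the 75 was called (0.0177% of 11315 genes were called in either direction, 0.00884% higher and 0.00884% lower), 1 had an unadjusted p under 0.05, and the threshold throughout is a Benjamini-Hochberg adjusted p of 0.05 over all genes tested with limma. The values nevertheless leaned one way: 74 of 75 differences were below 0, with a median of -0.21 on the log2(FPKM + 1) scale against -0.02 for all genes. In 47 of the 75 both IR libraries lay below all 3 noIR libraries, a pattern seen in 9.51% of all genes, and in 1 they lay above (8.57% of all genes). Rps29, whose human gene is mutated in Diamond-Blackfan anemia, measured 2981 and 3281 FPKM in IR and 3527, 3729 and 4818 in noIR. Its difference was -0.35 (SE 0.18, limma adjusted p = 0.974). Rplp1 measured 9451 and 9122 in IR and 9635, 10050 and 13228 in noIR.

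The lean moved with noIR replicate 3, in which the 71 unshared genes stood a median of 0.33 above the other E11.5 libraries on the log2 scale. The 23 genes with the shortest coding sequences (up to 405 bases) stood 0.52 above, and the 23 with the longest (from 582 bases) 0.27 above. Without that library the median difference was -0.13, against -0.02 for all genes. Relative to the median of all genes the family's median was -0.19 as deposited, -0.19 after median scaling, -0.18 after rescaling to TPM and -0.18 after scaling to other genes, but 0.01 after quantile normalization. The low sum of supporting cell markers also differed between the E11.5 groups, narrowly and with none of its genes called, as given above. Erythroid and macrophage sums overlapped between these groups but varied widely among libraries. Erythroid markers summed to 654 and 10.3 FPKM in IR and 304, 1.21 and 378 in noIR. Macrophage markers summed to 12.6 and 16.9 FPKM in IR. In noIR they summed to 49.5 and 20.8 in replicates 2 and 3, with replicate 1 below both IR libraries. The germ cell marker Dazl ran from 50.9 to 412 FPKM in IR and from 12.4 to 92.6 in noIR. The part of any of these cells in the lean was not tested. The gene above 0 was Rps27, at 207.4 and 10.58 FPKM in IR and 9.202, 9.442 and 7.450 in noIR, so that 1 library set its difference. Summed with the joint entry, Rps27 ran from 3694 to 3773 FPKM in IR and from 4455 to 5232 in noIR.

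No ribosomal protein gene passed the test in E13.5 females either, where a large share of all genes did. None of the 76 was called in FIR against FC (44.8% of 12852 genes were called), 1 had an unadjusted p under 0.05, and their median log2 difference was -0.003 against -0.03 for all genes. Differences of the 71 unshared genes lay between -0.20 and 0.27. Rps4x, a protein of the small subunit, measured 4089, 4342 and 5154 FPKM in FIR and 5271, 5246 and 4985 in FC, a difference of -0.20 (SE 0.12, limma adjusted p = 0.211) with overlapping groups. Rps19, the gene most often mutated in human Diamond-Blackfan anemia, measured 1365, 1460 and 1590 FPKM in FIR and 1220, 1359 and 1255 in FC. Its groups did not overlap, a pattern that 7 ribosomal protein genes had in this direction (29.3% of all genes) and 1 in the other (32.3%), but its difference of 0.20 (SE 0.10) had a limma adjusted p of 0.123.

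The FIR libraries were not alike. The unshared genes stood a median of 0.14 below the other E13.5 libraries in FIR replicate 1, and 0.14 and 0.21 above them in replicates 2 and 3. FIR replicate 1 also had the highest supporting cell sum of its group (429 FPKM against 178 and 173) and the lowest germ cell sum (1618 against 2466 and 2414); the part of these cells in the result was not tested. Scaling moved the count: 12 genes were called higher after TPM rescaling or after scaling to other genes, 9 higher and 2 lower after quantile normalization, and 13 higher and 1 lower with library weights. The median of all genes was -0.03 as deposited, 0.05 after TPM rescaling, 0.08 after scaling to other genes and -0.11 after quantile normalization. Shares of all genes called under these settings are not given here. The counts are therefore not read as results about the family. Rps27, whose human product is linked to Diamond-Blackfan anemia, missed the threshold when taken alone, with a difference of 1.14 (limma adjusted p = 0.0568) and an adjusted p from 0.0269 to 0.204 over the alternatives that kept it alone. Summed with Gm9846 it ran from 4292 to 4742 FPKM in FIR and from 3293 to 3421 in FC, a difference of 0.42 (limma adjusted p = 0.00509). That sum was chosen after seeing the data, and the Rps27 entry held 0.152% of it over the E13.5 libraries. The difference is therefore almost wholly that of the Gm9846 entry.

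**Figure D2:**
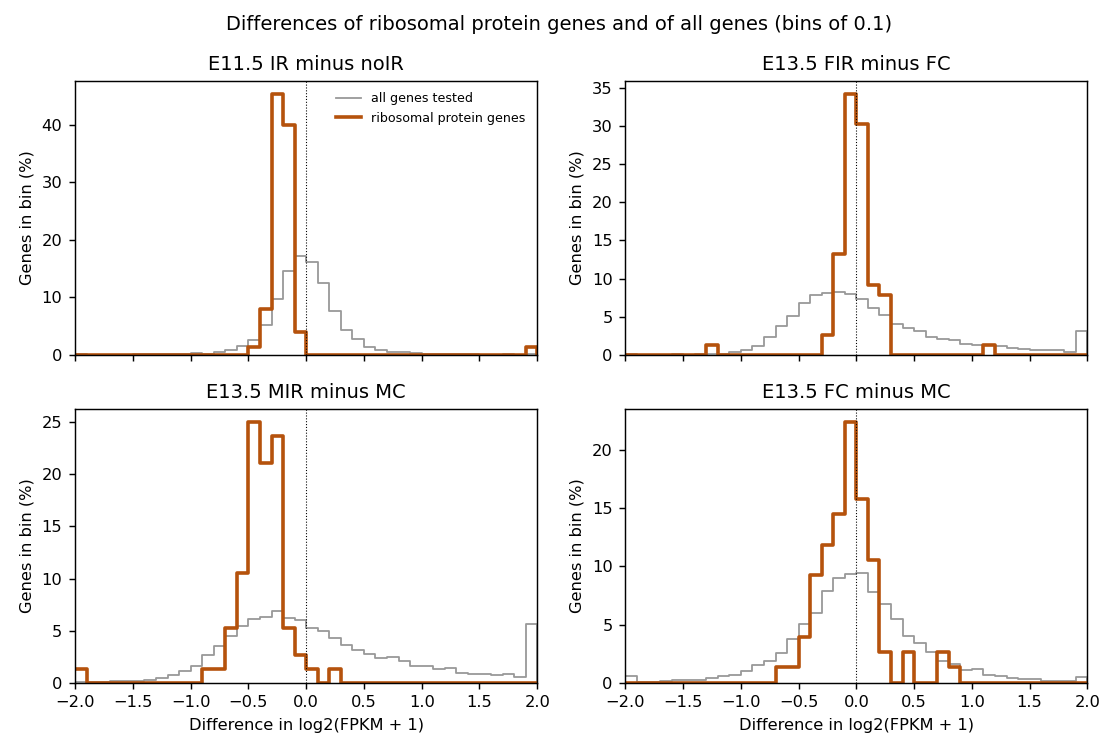
Distribution of differences in log2(FPKM + 1) (x axis, bins of 0.1; values past 2 are counted in the outermost bins) as a percentage of genes (y axis) for the ribosomal protein genes (brown) and all genes tested (grey) in 4 comparisons. The ribosomal protein genes form a narrow peak, below 0 at E11.5 and in MIR minus MC (medians -0.21 and -0.38) and at 0 in FIR minus FC.

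In the male sets the ribosomal protein genes were lower as a family in MIR. Of the 76, 50 were called lower than in MC and none higher, with 59.7% of 12852 genes called, 31% lower and 28.7% higher. The share was alike in both subunits, with 30 of 46 large and 20 of 30 small subunit genes. The median log2 difference was -0.38, against -0.04 for all genes, and 74 of 76 were below 0. In 57 genes all 3 MIR libraries lay below all 3 MC libraries, as did 34.5% of all genes, and in none did all lie above (30.4% of all genes).

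All 3 stalk proteins, which recruit the elongation factors to the ribosome, were called lower in MIR. Rplp1 measured 2500, 3518 and 2920 FPKM in MIR and 5419, 4166 and 4902 in MC, and fell by 0.70 on the log2 scale (SE 0.17, limma adjusted p = 0.00342). Its partner Rplp2 measured 1415, 1832 and 1639 in MIR and 2878, 2269 and 2697 in MC, and fell by 0.68 (SE 0.15, limma adjusted p = 0.00247). For neither did the groups overlap. Rplp0, the base of the stalk, measured 856.6, 1178 and 976.3 in MIR and 1540, 1215 and 1302 in MC, and fell by 0.43 (SE 0.13, limma adjusted p = 0.011), close to the family's median of -0.38.

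Rpl8, Rpl13 and Rps2 came next in size of fall. Rpl8, which lies at the peptidyl transferase centre, measured 1124, 1474 and 1328 FPKM in MIR and 2288, 1804 and 2160 in MC, and fell by 0.67 (SE 0.13, limma adjusted p = 0.0011). Rpl13, also of the large subunit, measured 1121, 1336 and 1241 in MIR and 2088, 1671 and 1950 in MC, and fell by 0.62 (SE 0.12, limma adjusted p = 0.000736). Rps2, at the entry of the mRNA channel, measured 1809, 2571 and 2181 in MIR and 3654, 2953 and 3420 in MC, and fell by 0.62 (SE 0.15). In each of these genes MIR replicate 1 was the lowest library and MIR replicate 2 the highest of its group, and no MIR value reached an MC value. Rpl18 and Rpsa, the latter also known as a laminin receptor, both fell by 0.57. Rpl30, the largest fall called at 0.81, is 1 of the genes with a copy, and summed with Gm12191 it fell by 0.37 (limma adjusted p = 0.0331).

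Lists of ribosomal proteins with roles outside the ribosome or in disease had shares called near that of the family. On a list of 12 MDM2-binding ribosomal proteins 8 fell, and on a list of 19 genes mutated in human Diamond-Blackfan anemia 11 fell, beside 50 of 76 for the family and 31% of all genes. Rpl5 measured 924.9, 1125 and 1010 FPKM in MIR and 1353, 1210 and 1350 in MC, and fell by 0.36 (SE 0.11, limma adjusted p = 0.0136). Rpl11 measured 1999, 2088 and 2114 in MIR and 2723, 2082 and 2713 in MC, and its difference of -0.27 (SE 0.13) was not called (limma adjusted p = 0.0956), and MC replicate 2 lay among the MIR values. Rpl23, a further MDM2 binder, fell by 0.32, and Rps27a, made as a fusion with ubiquitin, fell by 0.31 (limma adjusted p = 0.0439 and 0.0494). Rps6, the substrate of the S6 kinases downstream of mTOR, fell by 0.40 (SE 0.12, limma adjusted p = 0.0138). Of 3 further genes fixed by name, Rps3, which lines the mRNA entry and also acts in DNA repair, fell by 0.46, Rpl13a, a translational silencer in human monocytes, by 0.45 and Rpl3, a protein near the peptidyl transferase centre, by 0.27.

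**Figure D3:**
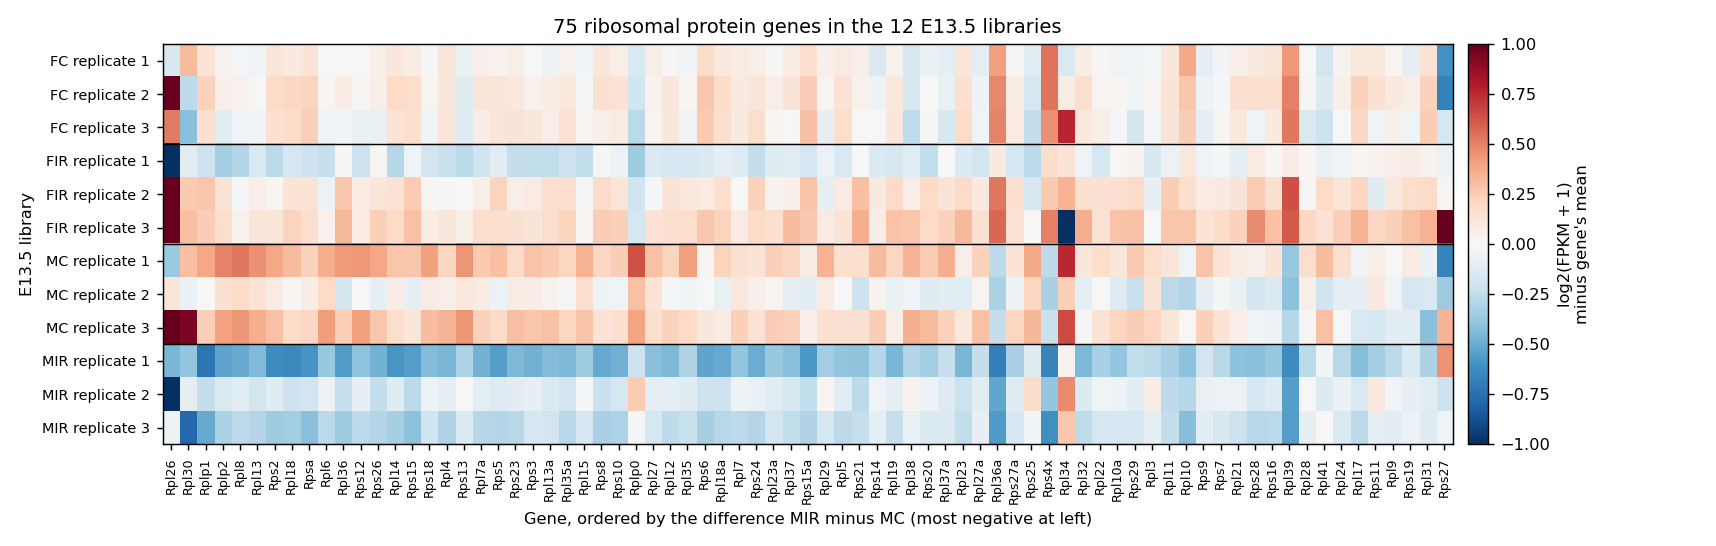
Level of 75 ribosomal protein genes (columns, ordered by MIR minus MC) in the 12 E13.5 libraries (rows) as log2(FPKM + 1) minus the gene's mean over the 12 libraries; red is above the mean, blue below, and the colour scale ends at 1 in either direction. MIR replicates 1 and 3 are low across nearly all genes, FIR replicate 1 is lower than FIR replicates 2 and 3, and Rpl36a, Rps4x, Rpl39 and Rpl10 are high in all FC libraries.

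A few genes had differences near 0. Rps19 measured 1172, 1225 and 1242 FPKM in MIR and 1368, 1151 and 1201 in MC, a difference of -0.03 (SE 0.10, limma adjusted p = 0.827). Rpl31 measured 603.3, 699.6 and 688.8 in MIR and 720.2, 675.6 and 561.8 in MC, a difference of 0.03 (SE 0.12, limma adjusted p = 0.841). Rpl9, at 1902, 2253 and 2114 in MIR and 2294, 2236 and 2114 in MC, was named after its values were seen. In all 3 the groups overlapped.

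The count of 50 moved with the libraries and the scaling. It was 26 without MIR replicate 1, 30 without MC replicate 1, 31 without MC replicate 3, and between 26 and 57 over all 6 libraries left out. With MIR replicate 2 as the only MIR library the median difference was -0.25. That library had the lowest supporting cell sum of its group (404 FPKM against 1307 and 1241). Its Leydig and mesenchyme sum (65.2 against 37.4 and 45.7) and erythroid sum (41.6 against 32.6 and 26.4) were the highest. Its macrophage sum lay between the others (19.7 against 28.6 and 10.1). This fit was chosen after seeing the data and takes the lone library to vary like the other groups. The counts were 26 lower and 2 higher after TPM rescaling, 27 lower after scaling to other genes, and 15 lower and 10 higher after quantile normalization, which turned the difference of Rps19 to 0.35. Relative to all genes the family's median was 0.33 lower as deposited, 0.30 lower after TPM rescaling and 0.13 higher after quantile normalization. The germ cell marker sum was also lower in all MIR than in all MC libraries, and the part of other cells in the result was not tested.

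Between the non-irradiated female set FC and the male set MC, 5 ribosomal protein genes were higher in FC and 7 lower, where 34.9% of all genes were called, 16.1% higher and 18.8% lower. The sets did not overlap in 10 genes higher in FC (28.5% of all genes) and 16 lower (31.3%). All 4 genes on the X chromosome were higher in FC, and they made up 4 of the 5. Among other X-linked genes 216 of 477 rose (45.3%, median 0.45), and among autosomal genes outside the family 15.0%. Of the 72 autosomal ribosomal protein genes, 1 rose and 7 fell. With MIR in the place of MC, as the male titles would have it, 38 ribosomal protein genes were higher in FC and none lower. The shares of all genes given above belong to FC against MC and not to that comparison. Its own share is not given here, so the count is not read as a result about the family.

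Rpl39, a very small protein that lines the exit tunnel of the large subunit (GRCm38 chrX:37082520-37085402), measured 5906, 6228 and 6323 FPKM in FC and 3364, 3297 and 3600 in MC. It was 0.85 higher on the log2 scale (SE 0.15, limma adjusted p = 0.000869). Rps4x (chrX:102184941-102189394) measured 5271, 5246 and 4985 in FC and 3030, 2903 and 3109 in MC, and was 0.78 higher (SE 0.12, limma adjusted p = 0.000481). In humans RPS4X is expressed from both X chromosomes and has a homologue on the Y. Rpl36a (chrX:134585654-134588062) measured 3526, 3714 and 3751 in FC and 2219, 2137 and 2251 in MC, 0.73 higher (SE 0.13, limma adjusted p = 0.000995). Rpl10 (chrX:74270812-74273135), which joins the large subunit late in its assembly, measured 2065, 1928 and 1880 in FC and 1538, 1297 and 1591 in MC, 0.41 higher (SE 0.11, limma adjusted p = 0.0103). For none of the 4 did the sets overlap. Their difference stayed above 0 and called in all 80 refits under the alternatives, the exchange of the male codes included (log2 0.32 to 1.07).

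The autosomal genes behaved differently. Rplp0 (chr5:115559467-115563727) was the lowest in FC, at 889.5, 859.7 and 820.3 FPKM against 1540, 1215 and 1302 in MC, and fell by 0.65 (SE 0.13, limma adjusted p = 0.00196). FIR values of Rplp0 were 773.0, 860.9 and 877.5, close to FC, so every female library lay below every MC library. Its stalk partners did not pass: Rplp1 differed by -0.03 and Rplp2 by -0.36 (limma adjusted p = 0.901 and 0.0939). Rps25, a small subunit protein used by viral internal ribosome entry sites, fell by 0.48, Rps13 by 0.44, Rpl38, which in mice affects translation of Hox mRNAs, by 0.42, and Rpl8, Rpl13 and Rpl6 by 0.38, 0.34 and 0.33. The autosomal gene that rose was Rpl31, at 829.7, 883.7 and 891.7 FPKM in FC and 720.2, 675.6 and 561.8 in MC, 0.42 higher (SE 0.12, limma adjusted p = 0.0147). Its adjusted p was 0.0757 without MC replicate 3, 0.0522 without FC replicate 2 and 0.0555 without FC replicate 3. The number lower ran from 2 to 12 when a library was left out, with 2 without MC replicate 1 and 12 without MC replicate 2.

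**Figure D4:**
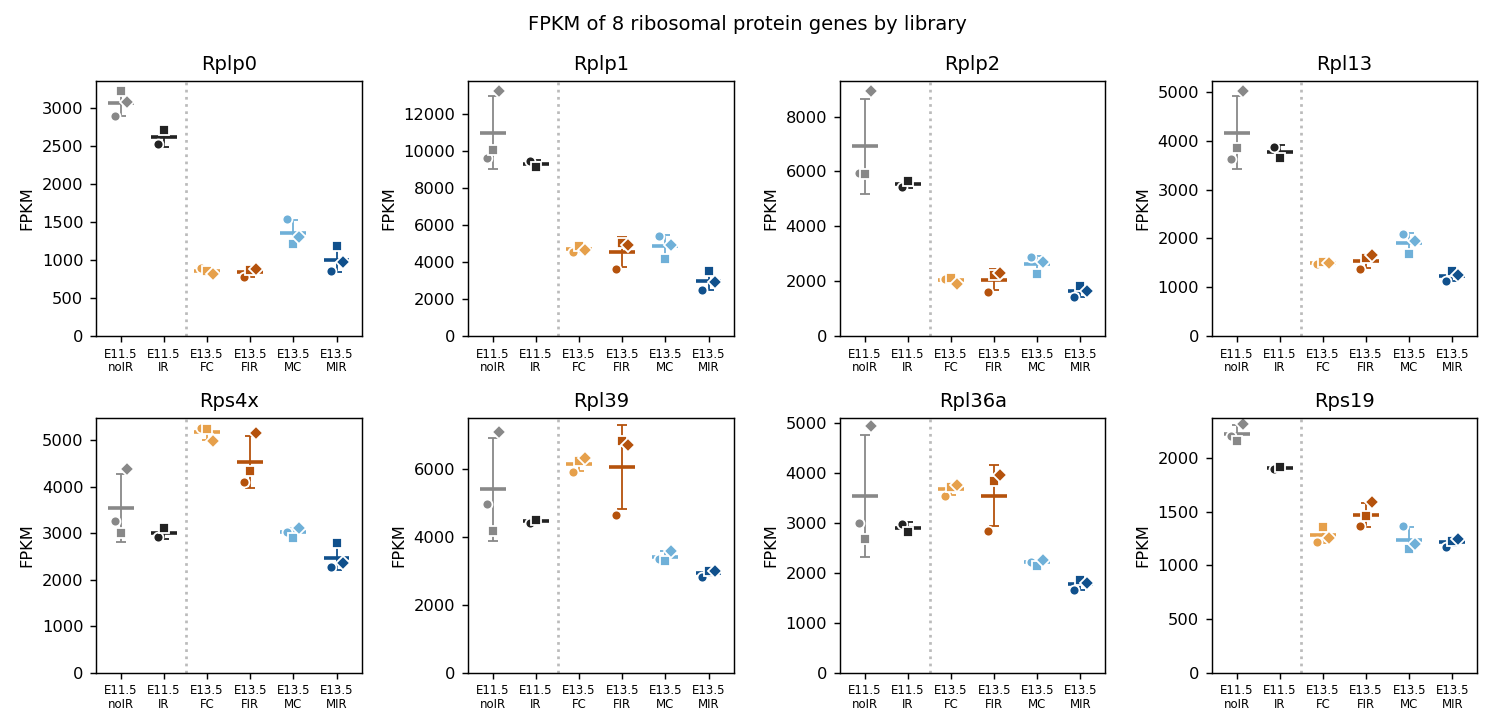
FPKM (y axes, from 0) of 8 ribosomal protein genes in each group (x axis). Circles, squares and diamonds are replicates 1, 2 and 3, bars are means and whiskers SD; the dotted line separates tables normalised separately. The stalk genes Rplp1 and Rplp2 and Rpl13 are lowest in MIR among the E13.5 groups, Rps4x, Rpl39 and Rpl36a are high in both female groups, Rplp0 is low in both female groups, and Rps19 overlaps between the male sets.

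The female and male changes were compared directly as FIR minus FC less MIR minus MC. The median over the 76 genes was 0.39, against 0.02 for all genes, and 74 of 76 were above 0, that is, the change was more positive in females. Only Rpl13 was called (7.77% of all genes were, 2.81% in this direction and 4.96% in the other), with a difference of 0.66 (SE 0.17, limma adjusted p = 0.0313). An unadjusted p under 0.05 was seen in 36 of the 76, a count for which no share of all genes is given here. In FIR Rpl13 measured 1364, 1587 and 1656 FPKM and in FC 1473, 1519 and 1494, so the female groups overlapped while the male sets did not. Over 26 alternatives that kept the male codes the adjusted p for Rpl13 ran from 0.000947 to 0.234, and it passed in 13. With library weights 60 genes were called, and with a library left out between 0 and 16, the 16 without MIR replicate 2; with MIR replicate 2 as the only MIR library there were 0.

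Of 10 paralogues outside the family that were tested, none was called in FIR against FC (44.8% of all genes were), and 5 fell and 1 rose in MIR against MC (31% of all genes fell and 28.7% rose). The rise was Rps27l, a p53 target, at 1354, 1533 and 1542 FPKM in MIR and 1273, 1021 and 1164 in MC, 0.36 higher (SE 0.13, limma adjusted p = 0.0327). Rps4y2, a relative of Rps4x also called Rps4l, measured 150.6, 235.9 and 194.6 in MIR and 455.8, 329.8 and 376.7 in MC, and fell by 1.01 (SE 0.17, limma adjusted p = 0.00038). Rpl39l, a paralogue of Rpl39 known from testis, fell by 0.67, Rpl7l1 by 0.56, Rps3a1 by 0.43 and Fau, which encodes a ubiquitin-like protein fused to a small subunit protein, by 0.32. Rpl10l, Rpl22l1 and Rpl36al had differences of -0.48, -0.29 and -0.32 that did not pass. In FC against MC, Rps4y2 and Rpl7l1 fell by 0.66 and 0.53. Rpl3l, a muscle paralogue, was listed below an FPKM of 1 in every E13.5 library and was not tested.

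The genes of ribosome assembly, the nucleolar factors that make and process rRNA, were lower in FIR and in MIR. Of 57 ribosome biogenesis genes tested, 40 fell in FIR against FC and 51 in MIR against MC, with none higher in either, and 29 fell in FC against MC. Of all genes 22.9%, 31% and 18.8% fell in these comparisons, against 70.2%, 89.5% and 50.9% of the list. Polr1b, a core subunit of RNA polymerase I, averaged 14.7 FPKM (SD 0.415, n = 3) in FIR and 29.1 (SD 4.35, n = 3) in FC, and fell by 0.93 (SE 0.14, limma adjusted p = 0.000439). In MIR it averaged 18.3 (SD 4.17, n = 3) and in MC 47.1 (SD 2.24, n = 3), and fell by 1.34. Heatr1, Nolc1 and Tsr1, which act in early rRNA transcription, nucleolar assembly and small subunit maturation, fell by 1.09, 0.87 and 0.70 in FIR. In MIR Ubtf, the RNA polymerase I activator, fell by 1.07, Noc2l by 1.03 and the rRNA methyltransferase Nop2 by 0.89. The mitochondrial ribosomal proteins, 76 genes, showed 3 higher and 8 lower in FIR and 3 higher and 41 lower in MIR. The 10.5% lower in FIR was below the share of all genes (22.9%), and the 53.9% lower in MIR was above it (31%). Ribosome biogenesis genes fell in the same groups, FIR and MIR, in which supporting cell markers were raised and germ cell markers lowered, and the part of those cells was not tested.

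Translation factors, which share the oligopyrimidine motif in many cases, were tested as a list. Of 23, 5 fell and 1 rose in FIR, and 16 fell and 1 rose in MIR. The 21.7% that fell in FIR is near the 22.9% of all genes, so that count shows nothing about the list, while in MIR 69.6% fell against 31% of all genes. The rise was Tpt1 in both, whose mRNA also begins with an oligopyrimidine run: it was 0.72 higher in FIR (limma adjusted p = 0.00191) and 0.68 higher in MIR (limma adjusted p = 0.00148). The elongation factor subunits Eef1d and Eef1g fell by 0.66 and 0.54 in MIR, and Eif4b, an initiation factor, fell by 0.35 in FIR and 0.39 in MIR. Among 20 mTOR and MYC genes 3 rose and 8 fell in FIR, and 3 rose and 9 fell in MIR, that is, 15% rose in each (21.8% and 28.7% of all genes) and 40% and 45% fell (22.9% and 31%). Larp1, the binder of oligopyrimidine mRNAs, averaged 34.6 FPKM (SD 2.78, n = 3) in FIR and 53.9 (SD 7.19, n = 3) in FC, and fell by 0.62 (SE 0.10, limma adjusted p = 0.000729). Sesn2, a p53 target that restrains mTOR, was 1.39 higher in FIR and 0.66 higher in MIR, and Ddit4, another inhibitor of mTOR, 1.14 and 0.89 higher. The shifts of marker genes in FIR and MIR apply to these lists too, and their part was not tested.

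**Figure D5:**
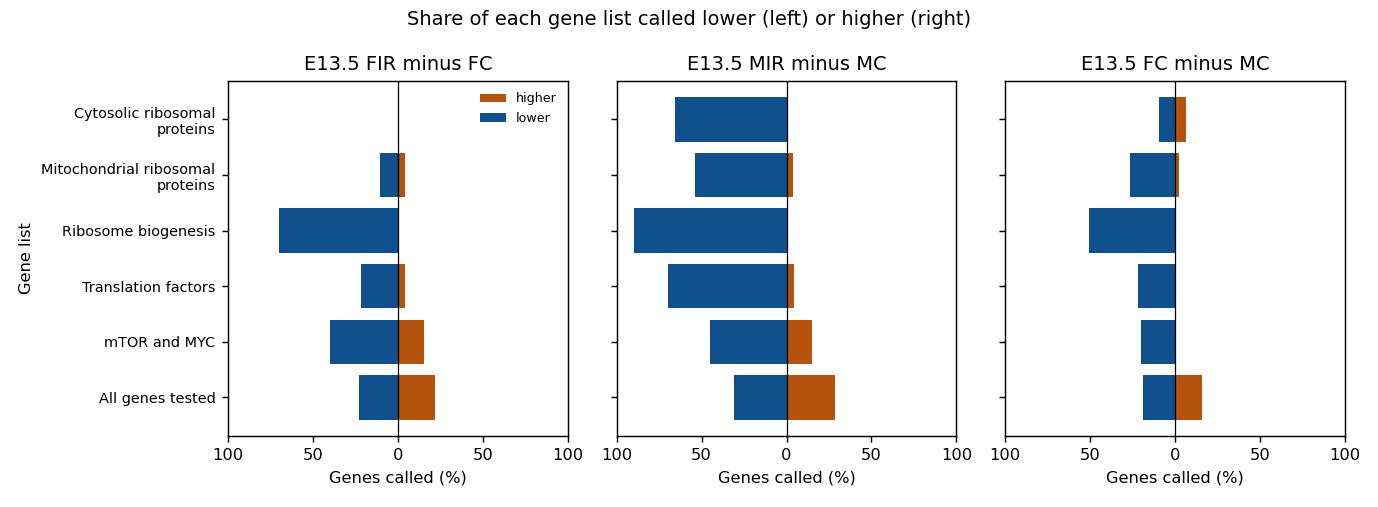
Percentage of each gene list called lower (blue, left of 0) or higher (brown, right of 0) in FIR minus FC, MIR minus MC and FC minus MC, with all genes tested in the bottom bar. In FIR minus FC 40 of 57 ribosome biogenesis genes but none of the 76 cytosolic ribosomal protein genes were called lower.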

How the data were processed

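Expression was measured by RNA sequencing of total RNA after ribosomal RNA was removed by hybridization, per the labels' protocols. The deposited tables hold FPKM values computed by the authors, 1 table for 5 E11.5 and 1 for 12 E13.5 libraries. Per the submitters' processing notes, mm10 was the build and DESeq2 a tool used. How reads were aligned and counted, and on which annotation, is not given in the sources used here. All columns were matched to a sample by code or title.

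Tests used limma 3.58.1 (limma-trend, two-sided) in R 4.3.3 on log2(FPKM + 1), with Benjamini-Hochberg adjustment over all genes that reached an FPKM of 1 in 2 or more E11.5 or 3 or more E13.5 libraries. The pseudocount of 1 understates the change of low genes. The 4 E13.5 groups shared 1 fit. DESeq2 was not run because the values are not counts. Python 3.11.15 served for tables and figures. Steps were tested on simulated data.

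The members and gene lists were chosen with earlier results of these data known. Named genes were, per comparison, up to 8 called members with the largest rise and 8 with the largest fall (or the 3 smallest p where none was called), the 5 highest and 5 lowest by FPKM, 19 genes fixed by name, all paralogues, and up to 4 called genes of each other pathway list; some genes under this rule are not reported here.

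Gene coordinates and coding lengths are from GENCODE M21 on GRCm38 (mm10), promoters from RefSeq on GRCm38.p6. A transcript was taken to share sequence with another entry when at least 40% of its 31-base words occurred there. Rps27 was paired with Gm9846 by their joint listing at E11.5 and not by this rule. Alternatives were pseudocounts of 0.1 and 5, a filter set to 5 or dropped, normalization to equal quantiles, median scaling, TPM rescaling, scaling to other genes, library weights, robust moderation, a replicate block, leaving out each library, fitting only the groups compared, no mean-variance trend, and exchange of the male codes. Scaling to other genes used the summed FPKM without the family, genes of the mitochondrial genome, small RNA genes and genes with predicted (Gm) or Rik symbols. Summing shared entries and keeping MIR replicate 2 as the only MIR library were added after seeing the data.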

Additional observations from a re-analysis of the deposited data

Results flagged for a closer look

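In a test of the difference between the female change (FIR minus FC) and the male change (MIR minus MC), 1 ribosomal protein gene passed: Rpl13, whose change was 0.66 higher in females on the log2 scale (SE 0.17, limma adjusted p = 0.0313). Among the other genes named, the paralogue Rpl7l1 differed by 0.40 (SE 0.10, limma adjusted p = 0.0386), the RNA polymerase I factor Ubtf by 0.56 (SE 0.15, limma adjusted p = 0.0414) and the mTOR inhibitor Sesn2 by 0.73 (SE 0.15, limma adjusted p = 0.0123). For Rpl7l1 and Ubtf the male change was the more negative, and for Sesn2, higher in both FIR and MIR, the female rise was the larger. With the male codes exchanged, Rpl13 differed by -0.59 (limma adjusted p = 0.00702).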

How the results depend on the processing

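Counts of called ribosomal protein genes depended on the scaling, the libraries and the male codes. Shares of all genes called under the alternatives are not given here or above. The counts under the alternatives are therefore not read as results about the family. In FIR against FC, 0 as deposited, there were 9 higher and 2 lower after quantile normalization, 12 higher after TPM rescaling, 12 higher after scaling to other genes, 13 higher and 1 lower with library weights, and 1 higher with a pseudocount of 0.1 or with shared entries summed. In MIR against MC, 50 lower, there were 27 lower without a filter, 15 lower and 10 higher after quantile normalization, 26 lower and 2 higher after TPM rescaling, 27 lower after scaling to other genes, and 2 lower with MIR replicate 2 as the only MIR library. In FC against MC, 5 higher and 7 lower, there were 2 lower without a filter, 15 higher and 12 lower after quantile normalization, 2 lower after median scaling, 9 higher after TPM rescaling, 9 higher and 3 lower after scaling to other genes, and 12 higher and 36 lower with library weights. For the difference of the changes, 1 higher, there were 0 without a filter, 0 after median scaling, 5 after TPM rescaling, 4 after scaling to other genes, 60 with library weights, 2 with robust moderation and 0 with MIR replicate 2 as the only MIR library. The cause was not tested, except that the last leaves 1 MIR sample. Scaling moved the median of all genes by over 0.1: in MIR against MC it was -0.04 as deposited, -0.16 after quantile normalization, -0.19 after median scaling, 0.15 after TPM rescaling and 0.10 after scaling to other genes.

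Leaving out each library in turn gave 0 to 1 higher and 0 to 0 lower at E11.5, 0 to 1 higher and 0 to 0 lower in FIR against FC, 26 to 57 lower and 0 to 0 higher in MIR against MC, 4 to 5 higher and 2 to 12 lower in FC against MC, and 0 to 16 higher and 0 to 0 lower for the difference of the changes.

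With the replicate number as a block, 1 gene was higher in FIR against FC, 45 were lower in MIR against MC, 5 were higher and 3 lower in FC against MC, 1 was higher for the difference of the changes and 0 at E11.5. The numbers were not taken as pairs, since correlations of same-numbered libraries ran from -0.218 to 0.482 at E13.5, and E11.5 has 2 pairs (0.156 and 0.246).

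Exchanging the male codes gave 50 higher and 0 lower for MIR against MC, 38 higher and 0 lower for FC against MC, and 0 higher and 33 lower for the difference of the changes. For the last 2 of these, the shares of all genes given earlier do not apply, so these counts are not set against all genes. By construction the signs of MIR against MC turned: Rpl30 0.81, Rplp1 0.70, Rplp2 0.68, Rpl8 0.67, Rpl13 0.62, Rps2 0.62, Rpl18 0.57, Rpsa 0.57, Rpl5 0.36, Rpl23 0.32, Rps27a 0.31, Rplp0 0.43, Rps6 0.40, Rpl36a 0.32, Rpl22 0.28, Rpl3 0.27, Rps3 0.46 and Rpl13a 0.45. In FC against MC, Rps13 0.045, Rpl8 0.29, Rpl13 0.28, Rpl6 0.23 and Rplp1 0.67. For the difference of the changes, Rpl13 -0.59, Rpl5 -0.47, Rplp0 -0.47, Rplp1 -0.77, Rplp2 -0.69, Rpsa -0.74, Rps6 -0.57, Rpl10 -0.38, Rps4x -0.49 and Rps3 -0.53. Quantile normalization turned MIR against MC for Rpl23 (0.065), Rps27a (0.10), Rps19 (0.35), Rpl36a (0.066), Rpl39 (0.19) and Rpl3 (0.12), and TPM rescaling for Rps19 (0.20). Of 2412 values recomputed for single named genes, 2148 kept their side of the threshold and, where called, their direction. A change of sign between uncalled values was counted among these. Of the rest, 146 lost the call, 78 gained it and 40 changed sign with a call before or after.

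The tables hold FPKM without read totals, so precision from depth cannot be given, and 2 or 3 libraries per group limit every test. FPKM is relative to the library, and the family held 20.4 to 34.2% of the summed FPKM, so levels per cell cannot be given.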

Other observations

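In FIR against FC the differences of the 71 unshared ribosomal protein genes followed their coding length, with a Spearman correlation across genes of -0.57. The 23 genes with the shortest coding sequences had a median log2 difference of 0.03 and the 23 with the longest -0.08. The same correlation was 0.47 for E11.5 IR against noIR, -0.24 for MIR against MC and 0.02 for FC against MC. Within single libraries compared with the rest of their table it was -0.44 for noIR replicate 3 and -0.40 and -0.43 for FIR replicates 2 and 3, but 0.44 for MC replicate 2. Genes are not independent replicates, and the points share their libraries, so these values are descriptions.

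Rpl41, the shortest of the family with a coding sequence of 75 bases, measured 2667, 3205 and 3090 FPKM in FIR and 2467, 2542 and 2426 in FC, with no overlap, and 0.27 higher on the log2 scale (SE 0.14, limma adjusted p = 0.146).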
